A study of Homo sapiens with 1 sample.

Results

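miR-103a and miR-107 form a small microRNA (miRNA) family whose hairpin precursors lie in genes for pantothenate kinases, the enzymes that catalyse the first committed step of coenzyme A synthesis. Their signals were read from a single array (n = 1) of DLD-1, a human colorectal carcinoma (CRC) cell line. The cells carried a negative control siRNA (si-NC), and the labels give no further treatment. The 4 members, hsa-miR-103a-3p, hsa-miR-103a-2-5p, hsa-miR-103b and hsa-miR-107, were chosen by name from the 2549 human miRNAs that the array measures. They were read from 9 probes with 80 spots. With miRNA arrays, the study looked for miRNAs that respond to depletion or overexpression of the circular RNA circLONP2. As the array of depleted cells was not analysed here, groups were not compared and no p-value was computed. Every error below is technical, since the array had no biological replicate.

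MiRNAs are processed from hairpins in which a 5p arm and a 3p arm pair with each other. One arm usually becomes the guide strand that is loaded into Argonaute, and its seed, bases 2 to 8, selects target mRNAs. miR-103a and miR-107 are known for repressing DICER1, which encodes the enzyme that cuts miRNA hairpins to maturity, and for repressing caveolin-1 in the control of insulin sensitivity. In tumours the family has been studied as a promoter of invasion.

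The sequences show what the probes had to tell apart. They were taken from RefSeq on GRCh38.p14, the seed is in capitals, and all 4 members were matched by name.

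hsa-miR-103a-3p: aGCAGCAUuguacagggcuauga

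hsa-miR-107: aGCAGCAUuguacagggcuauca

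hsa-miR-103a-2-5p: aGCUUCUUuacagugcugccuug

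hsa-miR-103b: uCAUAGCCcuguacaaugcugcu

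miR-103a-3p and miR-107 have 23 bases each and differ by the single substitution G22C, counted from 1 at the 5′ end of miR-103a-3p, so that 1 base follows the difference. They were the only 2 miRNAs with the seed GCAGCAU among the 2248 on the array with a RefSeq sequence. miR-103b is the exact reverse complement of miR-103a-3p over all 23 bases. It is annotated on the opposite strand of the same loci, and no other of the 2248 had its seed.

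miR-103a-3p is cut from a pair of hairpins. RefSeq places it at chr5:168560904-168560926 on the minus strand, inside the span of PANK3, and at chr20:3917541-3917563 on the plus strand, inside that of PANK2. miR-107 lies at chr10:89592756-89592778 on the minus strand, inside PANK1. Each of these hairpins runs on the strand of its host gene. These placements are known as intronic, but no exon annotation was used to check that. miR-103b lies at both miR-103a loci against the direction of the host. The array itself was designed on hg19 and its file gives no genome positions.

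The hairpins show which RNAs share letters with the partner arm. Annotated mature arms are in capitals.

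MIR103A1, PANK3: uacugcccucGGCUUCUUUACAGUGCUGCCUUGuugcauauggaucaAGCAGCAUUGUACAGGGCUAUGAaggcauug

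MIR103A2, PANK2: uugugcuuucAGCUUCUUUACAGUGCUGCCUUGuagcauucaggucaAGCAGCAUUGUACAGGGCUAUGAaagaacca

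MIR107, PANK1: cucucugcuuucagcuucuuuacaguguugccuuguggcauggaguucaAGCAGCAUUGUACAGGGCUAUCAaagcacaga

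The array names a single 5p arm, miR-103a-2-5p of the PANK2 hairpin. The 5p arm of the PANK3 hairpin, miR-103a-1-5p, differs from it by A1G and was not analysed here. The PANK1 hairpin holds the same 23 letters but for C16U. For the 5p arm as for the 3p arm, RNAs that differ at 1 base could thus have reached the same probe, and their part in the signals was not tested.

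The scanner software called 3 of the 4 members detected. Over all miRNAs of the array it called 44.4% detected, 1133 of 2549. The same 3 members were called where 50% of the spots of 1 probe had to be well above background (37.9% of all miRNAs) and where the median spot had to exceed the level of the negative controls (31.2%). Only 2 were called where every probe had to pass (29.4%), since miR-103a-2-5p was lost. The family therefore split into a bright pair, miR-103a-3p and miR-107, a dim partner arm and an undetected antisense miRNA. All values below are fluorescence intensity. A spot signal is 1 spot after background subtraction, and the total gene signal is the software's sum over the probes of a miRNA. Of the 1000 negative control spots, 99% lay at or under 16.1, which served as the level to compare dim spots with. No spot of a member was saturated.

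miR-103a-3p, the guide arm of the PANK2 and PANK3 hairpins, gave a total gene signal of 3399 ± 242 (error of the software). All 20 of its spots were well above background. Probe 1 (A_25_P00011004) ranged from 9440 to 10534 over its 10 spots, with a median of 10143. The lowest of these spots was marked as an outlier by the software. Probe 2 (A_25_P00011005) ranged from 8036 to 8648, with a median of 8394. Every spot of probe 1 thus exceeded every spot of probe 2.

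miR-107, the guide arm of the PANK1 hairpin, gave a total gene signal of 3364 ± 240, again with 20 of 20 spots well above background. Probe 1 (A_25_P00011069) ranged from 9717 to 10889, with a median of 10202. Probe 2 (A_25_P00011068) ranged from 7580 to 8469, with a median of 8200. The layout repeated that of miR-103a-3p, with a brighter probe and a dimmer one whose spots did not overlap it.

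**Figure D1:**
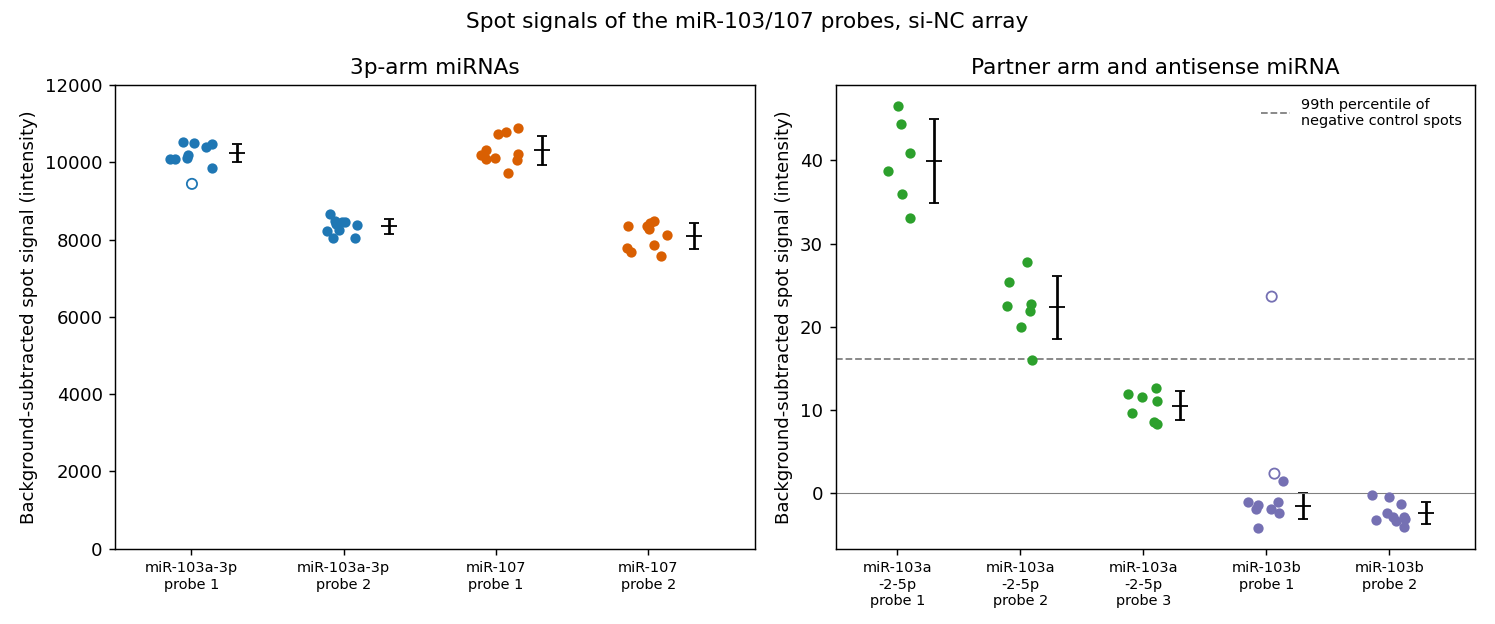
Background-subtracted signal (intensity, linear axes) of every spot of the 9 probes, with miR-103a-3p and miR-107 on the left and miR-103a-2-5p and miR-103b on the right. Filled points are spots used, open points are spots marked as outliers, and bars beside them are the mean and SD of the spots used. The probes of miR-103a-3p and miR-107 sit at matching heights, while the spots of miR-103b lie around 0, apart from 1 outlier spot at 23.6 above the dashed line at 16.1.

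The agreement of the near-identical pair was then measured. The total gene signal of miR-103a-3p was 1.01 times that of miR-107, a difference of 0.01 on the log2 scale with an error of 0.15 from the software. That error hardly followed the spread of spots: the signal of each of the 4 probes was 9.99 to 10.0 times its error. Read probe by probe, the brighter probes differed by -0.01 ± 0.02 (log2, miR-103a-3p minus miR-107, SE from replicate spots), with means of 10245 and 10306. The dimmer probes differed by 0.04 ± 0.02, with means of 8338 and 8087. In both cases the ranges of the spots overlapped. The dimmer probes differed by slightly over 2 of their standard errors, and the brighter ones by less than 1.

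The probes of 1 miRNA differed more than the total gene signals of the 2 miRNAs did. Probe 1 exceeded probe 2 by 0.30 ± 0.02 (log2, SE) for miR-103a-3p and by 0.35 ± 0.03 for miR-107. Over the 800 detected miRNAs with at least 2 probes above background, this difference between the brightest and the dimmest probe was 0.35 at the median, with quartiles at 0.14 and 0.82, so both members were typical of the array. Probes of the 2 miRNAs were matched by the order of these same signals and not by sequence, which by itself favours small matched differences. Whether the probe or the miRNA mattered more was therefore not tested. The signals of different probes are not abundances, and binding of miR-103a-3p by a miR-107 probe, or the reverse, could not be told apart from equal levels.

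Other close pairs gave a measure of how often such agreement occurred. A search of the 2248 sequences found 22 pairs of equal length that differ at 1 base, of which 18 had both miRNAs detected. miR-103a-3p and miR-107 had the smallest difference in total gene signal of these 18. The other 17 ran from 0.19 to 5.13 on the log2 scale, with a median of 1.64 and quartiles of 0.63 and 2.19. In none of the 17 was the difference within 1 error of the software.

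Some pairs were bright as well. Of the other 17, 7 had a signal of at least 1000 for both miRNAs, and their differences ran from 0.19 to 1.89 with a median of 0.51. Not all of these were as bright as miR-103a-3p with miR-107. Their lower signals went down to 1390, for miR-196a-5p with miR-196b-5p, against 3364. The brightest 5 by their lower member were let-7a-5p with let-7f-5p, at 0.19 ± 0.14, miR-19a-3p with miR-19b-3p, at 0.80 ± 0.14, miR-29a-3p with miR-29c-3p, at 0.51 ± 0.14, let-7a-5p with let-7c-5p, at 1.89 ± 0.16, and let-7b-5p with let-7c-5p, at 0.63 ± 0.16. Several of these pairs share a member, so they are not independent. Probes placed by brightness could be matched in 14 pairs with 2 probes each. Such matching favours small differences in all of them. In 2 pairs both matched differences were smaller than the differences between the probes of either miRNA. These were miR-103a-3p with miR-107 and miR-196a-5p with miR-196b-5p (chosen after its values were seen).

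The place of the differing base was read as well. In miR-103a-3p and miR-107, 1 base follows it at the 3′ end, fewer than in the other 17 pairs, where 2 to 13 bases followed. In 6 of those pairs at most 3 bases followed, and their differences ran from 0.45 to 1.89, with a median of 1.46. None of these 6 had a single base after the difference, and the part of its position in the agreement was not tested. The probe sequences were not used here.

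**Figure D2:**
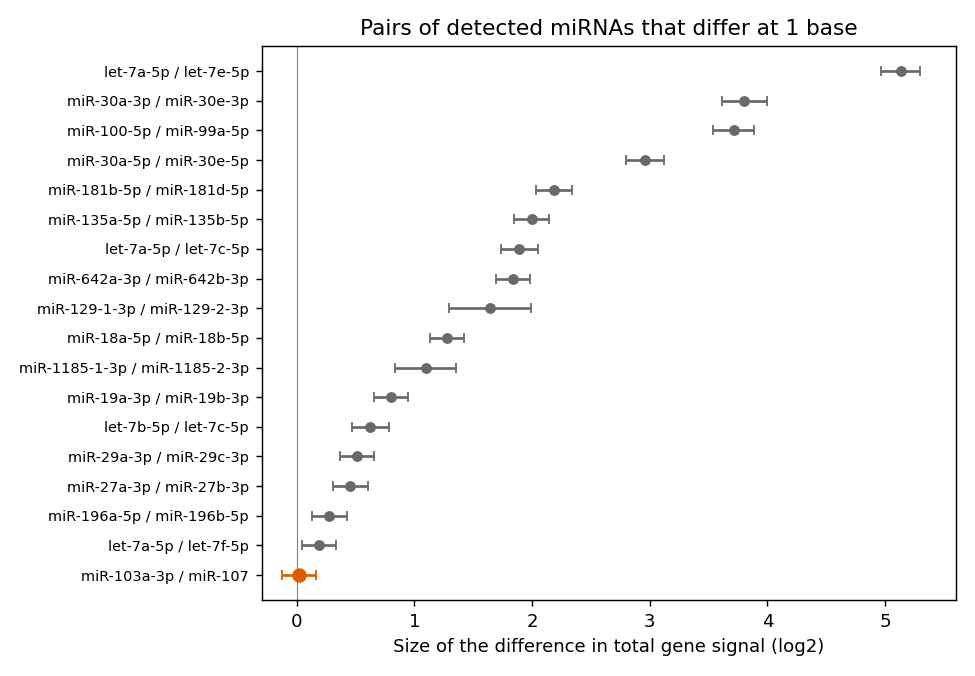
Size of the log2 difference in total gene signal for the 18 pairs of detected miRNAs that differ at 1 base, with bars for the error of the scanner software. miR-103a-3p with miR-107, in orange, has the smallest difference and is the one pair whose bar reaches 0.

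On the array as a whole, miR-103a-3p ranked 29 and miR-107 ranked 30 among the 1133 detected miRNAs by total gene signal, with 97.4% of detected miRNAs below each. Spots of detected miRNAs had a 75th percentile of 143. Relative to it, the mean log2 signal was 6.01 ± 0.03 (SD, 19 spots) for miR-103a-3p and 6.0 ± 0.06 (20 spots) for miR-107. Each SD is of replicate spots about the mean of their own probe, so the difference between probes is not in it. The ranks describe probe signal and not copy number. miR-103a-2-5p ranked 671, with 40.8% of detected miRNAs below it.

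**Figure D3:**
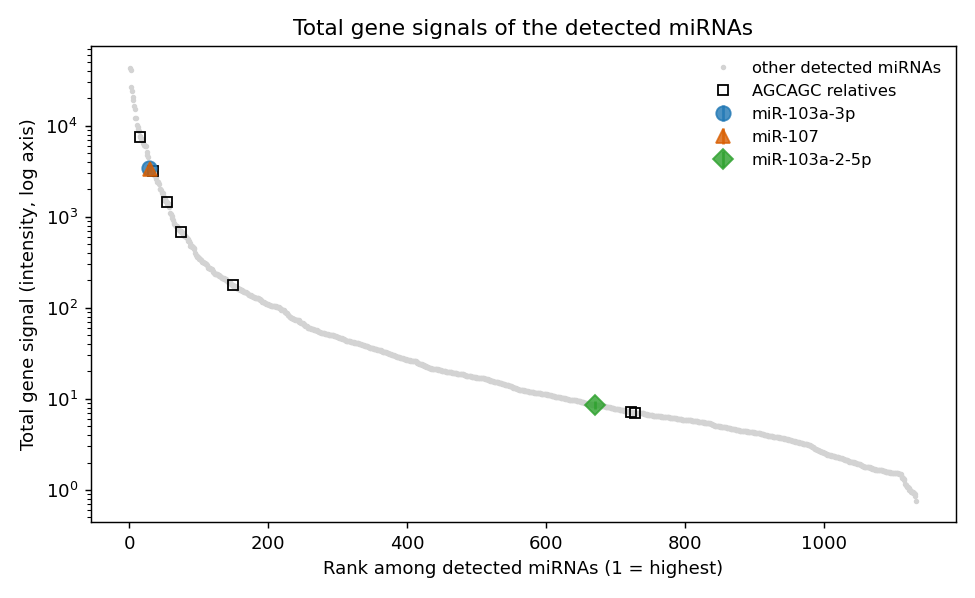
Total gene signal (intensity, log axis) of the 1133 detected miRNAs against their rank, with the detected members in colour and the detected miRNAs of the related miR-15/16 group as open squares. Error bars of the software are smaller than the markers. miR-103a-3p and miR-107 lie side by side at ranks 29 and 30, and miR-103a-2-5p lies at rank 671.

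miR-103a-2-5p, the partner arm of the PANK2 hairpin, was called detected with a total gene signal of 8.59 ± 0.776. It was read by 3 probes, of which 2 were above background. Probe 1 (A_25_P00015378) ranged from 33.1 to 46.5 over 6 spots, with a median of 39.8. Probe 2 (A_25_P00015377) ranged from 15.97 to 27.8 over 7 spots, with a median of 22.5, and probe 3 (A_25_P00015376) from 8.37 to 12.6 over 7 spots, with a median of 11.1. The ranges of the 3 probes did not overlap.

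Between the probes above background, probe 1 exceeded probe 2 by 0.85 ± 0.12 (log2, SE). This step fell to 0.27 with normexp background correction, which adds an offset of 50. The offset exceeded the mean spot signals of both probes, 40.0 and 22.3, and its part in the fall was not tested. All 13 spots of probes 1 and 2 were well above background, against 0 of 7 for probe 3, whose spots all lay under the level of 16.1, so no step to it is given. The signal of probe 3 was still 3.74 times its error, so it counted in the total. Adding up only probes above 3 times their error gave back the total gene signal of each of the 1133 detected miRNAs to within 0.1%. Without normexp, the step of 0.85 exceeded that of 76.5% of the 800 miRNAs.

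The arms of the hairpin were set against each other. The total gene signal of miR-103a-3p was 395 times that of miR-103a-2-5p, a log2 difference of 8.63 ± 0.17 (error of the software). The 3p arm is fed by a pair of hairpins and the named 5p arm by 1 of them, and the arms were read by different probes, so the value is not a ratio of strands. With the brightest probe of each arm the difference was 8.01.

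Among hairpins with both arms detected this difference was large, but less so among bright ones. The other hairpins were limited to those whose arms are named as a simple pair, the same name with -5p and -3p. Hairpins with an arm named by a further suffix, as miR-103a-2-5p is, were left out of them. The other 232 such hairpins had a median size of 2.50, with quartiles of 1.24 and 4.49, and 11 of them exceeded 8.63. Of the 232, 35 had an arm at a signal of 1000 or over. Their median size was 7.25, with quartiles of 6.0 and 8.78, and 10 of the 35 exceeded miR-103a. The 5p arm was the brighter in 125 of the 232, while the 3p arm was the brighter in 15 of the 35. In 3 hairpins the 3p arm led by more than 8.63. A further 285 hairpins had only 1 arm detected and entered none of these counts.

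**Figure D4:**
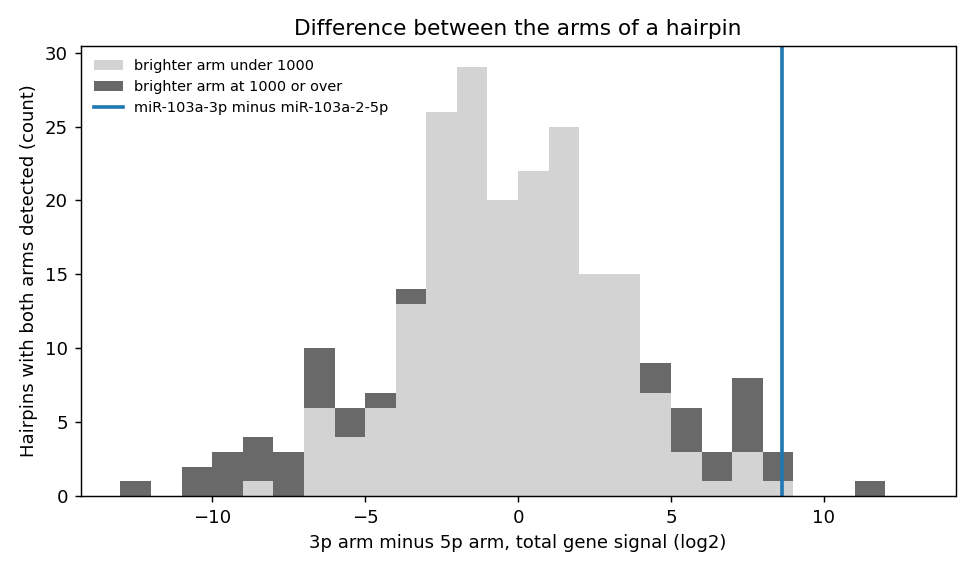
Histogram of the log2 difference in total gene signal between the 3p and the 5p arm, in bins of 1 log2 unit. It holds the 232 other hairpins with both arms detected and named as a simple pair, split by whether the brighter arm reached 1000. The blue line marks miR-103a-3p minus miR-103a-2-5p at 8.63, near the right end of the distribution and within the range of the hairpins with a bright arm.

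miR-103b, the antisense miRNA, was the undetected member. Probe 2 (A_25_P00015288) ranged from -4.06 to -0.25 over its 10 spots, with a median of -2.87. Probe 1 (A_25_P00015356) ranged from -4.13 to 23.6, with a median of -1.22. In all, 17 of the 20 spots were under 0 after background subtraction and 1 was well above background, the spot at 23.6, which the software marked as an outlier. Among the 18 spots not marked as outliers, 0 were well above background, and the highest was 1.42. The signals of 0.1 and error of 1 listed for miR-103b are placeholders that the software writes for undetected miRNAs.

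The probes of miR-103b gave this reading on the same array where the RNA of complementary sequence, miR-103a-3p, gave spots from 8036 to 10534. One spot of miR-103b lay directly beside a miR-103a-3p spot of 9440 and read -1.02. The miRNA was not detectable at this signal over background, which does not show that it was absent.

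RefSeq hairpins that overlap on opposite strands gave 23 pairs whose strands did not have the same set of mature miRNAs on the array, the miR-103b loci included. A pair was kept where its strands shared only part of their mature miRNAs. Of the 69 mature miRNAs of these pairs, both strands counted, 32 were called detected (46.4%), close to the 44.4% of the whole array. At least 1 mature miRNA of each strand was detected in 9 pairs, of a single strand in 8 and of neither in 6. miR-103b with miR-103a is counted in the group of 8 at both of its loci.

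The wider group to which miR-103a and miR-107 belong shares the letters AGCAGC at the 5′ end, starting at base 1 in miR-103a and miR-107 and at base 2 in the others. The shared letters are in capitals.

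hsa-miR-103a-3p: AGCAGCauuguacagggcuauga

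hsa-miR-16-5p: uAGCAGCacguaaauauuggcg

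hsa-miR-15b-5p: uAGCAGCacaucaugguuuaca

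hsa-miR-424-5p: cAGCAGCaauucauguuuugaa

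hsa-miR-503-5p: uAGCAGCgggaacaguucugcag

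hsa-miR-646: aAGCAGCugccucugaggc

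miR-15 and miR-16 are known repressors of the survival gene BCL2 and of cell cycle genes. Of the 2248 sequences, 11 (0.489%) held AGCAGC from base 1 or 2, searched on the miRNA strand alone. They were miR-103a-3p, miR-107, 8 listed relatives and miR-6838-5p, which was chosen after the search. The offset of 1 base gives miR-103a and miR-107 another seed, GCAGCAU.

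Of the 8 listed relatives, 7 were called detected, against 44.4% of all miRNAs. The total gene signal was 7451 ± 534 for miR-16-5p, 3162 ± 224 for miR-15b-5p, 1447 ± 104 for miR-15a-5p, 683 ± 49.0 for miR-424-5p and 178 ± 16.03 for miR-195-5p. Low signals were found for miR-503-5p, at 7.10 ± 0.698, and miR-497-5p, at 7.05 ± 0.851. miR-646 had 0 of 20 spots well above background. The listed relatives that were detected were called so by each of the 4 detection rules. Levels of different probes are not ranked here as abundance.

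Among these relatives, the partner arm was detected in 2 of the 6 hairpins whose arms are named as a simple pair. There the 3p arm minus the 5p arm was -5.41 for miR-15b and -6.67 for miR-15a on the log2 scale, so the 5p arm was the brighter, the reverse of miR-103a, whose guide is the 3p arm.

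Replicate spots gave the error within the array. The coefficient of variation (CV) over spots was 2.29% and 2.33% for the probes of miR-103a-3p and 3.64% and 4.15% for those of miR-107. The median over the 208 probes of the array with a mean of at least 1000 was 3.76%. For miR-103a-2-5p the CV was 12.7%, 16.9% and 16.1% from the brightest probe to the dimmest. The median was 8.73% over the 1940 probes above background. These include bright probes but not the dimmest probe of miR-103a-2-5p, so probes of like signal were not compared. The error of the software was 7.11% of the total gene signal for miR-103a-3p, 7.13% for miR-107 and 9.03% for miR-103a-2-5p, which for the bright pair exceeded the spread between spots.

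The values that the authors deposited after quantile normalization were 11.57 for miR-103a-3p, 11.49 for miR-107, 3.16 for miR-103a-2-5p and 2.32 for miR-103b (log2). Against the log2 total gene signal they were lower by 0.16 for miR-103a-3p (-0.16) and by 0.23 for miR-107 (-0.23), and higher by 0.06 for miR-103a-2-5p. The difference between miR-103a-3p and miR-107 was 0.09 in these values, against 0.01 in the scanner signal, although no other detected miRNA lay between them. The value of miR-103b is the lowest in the table, shared by 1429 entries.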

How the data were processed

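Total RNA of 1 sample of DLD-1 cells was labelled with Cy3 (the labels and the methods name different labelling steps) and hybridised to a single-colour Agilent miRNA array. Per the file headers, Feature Extraction 11.0.1.1 produced the deposited intensity, which is background-subtracted and not normalized between arrays. The authors also deposited log2 values, quantile normalized in GeneSpring, whose floor was found from the values. Of these values, only the column of the si-NC sample was used.

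From the values, the total signal of a probe equalled 0.0183 times its number of spots times the mean of the spots that were not outliers, so a total gene signal follows the number of spots, which was 20 for every member. Undetected miRNAs carry a placeholder of 0.1. Outlier spots were left out of means, SD and CV. A probe was above background when at least 50% of its remaining spots were well above background. Means of log2 spot signals are relative to the 75th percentile of detected miRNAs' spots. Errors are those of the software or the SD and SE over replicate spots, taken within each probe. No test was run on 1 array, whose number limits the precision.

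Sequences and positions came from RefSeq on GRCh38.p14, in which 2248 of 2549 miRNA names (88.2%) were found. The CV, the difference between probes and the search for close pairs were tested on simulated spots and sequences. All simulated spots were set as well above background and none as an outlier. The other steps were not tested this way. Python 3.11.15, numpy 2.4.6, pandas 2.3.3, matplotlib 3.10.9, R 4.3.3 and limma 3.58.1 (normexp, offset 50, on the median spot signal in place of the planned mean) were used.

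The members, the relatives and the alternatives were chosen with earlier results of these data known. Named were the 4 members and their probes, the 8 relatives and the 5 brightest other pairs of 1-base neighbours. Alternatives were other detection rules, normexp, outlier spots kept, another percentile, deposited values, the brightest probe, the mean log2 spot signal and removal of the medians of 16 position blocks.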

Additional observations from a re-analysis of the deposited data

Results flagged for a closer look

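A spot of miR-103b that the software had marked as an outlier read 23.6, above the 16.1 that 99% of the negative control spots did not exceed, and was left out of the values above. It was the 1 spot of 20 for this miRNA that was well above background, as were 1.40% of the negative control spots. The brightest spot within 1 row and 1 column of it read 8758. Of the 6 miR-103b spots with a spot of 1000 or over in that range, 1 was well above background. The other 5 read between -1.89 and 1.42. The part of neighbouring spots in this signal was not tested.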

How the results depend on the processing

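For 17 results there were 42 alternative values, of which 27 stayed within the limit set for them, 15 moved and 0 were counted as reversed. The limit was the error used for the result, or a set ratio for counts, under which 3 and 2 detected members counted as unchanged. A reversal was counted only where the reported value exceeded that error. Counts, CVs, probe steps and differences between miR-103a-3p and miR-107 could not count as reversed. The deposited value of miR-103a-2-5p, less its signal, went from 0.06 to -1.22, with 0.06 under its error of 0.13. Detection of miR-103a-3p, miR-107 and miR-103b was called alike by all 4 rules, while miR-103a-2-5p was lost under the rule on every probe, which left 2 members. The background share was 37.9%, 31.2% and 29.4% under the rule on 1 probe, on negative control spots and on every probe. Under the last rule 20 of the 69 mature miRNAs of the antisense pairs, both strands counted, were called in place of 32. The log2 signals of miR-103a-3p, miR-107 and miR-103a-2-5p moved to 8.45, 8.44 and -0.38 with the percentile over all miRNA spots, because the reference fell from 143 to 26.3, and to 5.53, 5.53 and -1.32 with normexp, which adds an offset. With deposited values they were 5.75, 5.66 and -2.67, of which the first 2 had moved. The step between probes of miR-103a-2-5p fell from 0.85 to 0.27 with normexp, whose offset of 50 exceeded the means of both probes. The difference between arms of miR-103a was 8.41 with deposited values and 8.01 with the brightest probes, and the cause was not tested. Against the mean log2 spot signal the deposited values lay at -1.60, -1.67 and -1.22, since spot signals are on another scale than the total gene signal. The difference between miR-103a-3p and miR-107 ran from -0.02 to 0.09 over the alternatives run on it. Signal over background limits miR-103a-2-5p and miR-103b, and the spot spread of the bright pair says nothing about variation between cultures. No paired analysis was possible because the series as used here holds 1 sample.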
